A study of Arabidopsis thaliana with 18 samples.

Results

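The genes described here are those whose transcripts read lower within 0.5 h of white light than in the dark in Arabidopsis thaliana seedlings. A gene was taken where its probe set lists that gene alone, where the mean of the log2 changes at 0.5 h over polysome and steady-state RNA was -0.8 or lower with each change at -0.5 or lower, and where both dark means reached a signal of 100. IAA29, GH3.3, WES1 and SAUR genes were left out by the same rule, which removed 3 of 69 candidates (IAA29, AT2G18010 and AT3G53250). This left 66 genes, each with 1 probe set, of 13513 probe sets, for 13334 genes, that list 1 gene. They lie on all chromosomes, with 21 on chromosome 1, 6 on chromosome 2, 16 on chromosome 3, 8 on chromosome 4 and 15 on chromosome 5.

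RNA came from the aerial parts of Col-0 wild-type seedlings that were 4 days old and had grown without light. The seedlings were given 4 h or 0.5 h of white light at 70 to 80 µmol per square metre per second, or were kept dark. For each light condition, polysome RNA, which was recovered from a sucrose gradient and holds transcripts loaded with ribosomes, and steady-state RNA, the total cellular pool, were hybridised to separate arrays. Each of the 6 groups holds 3 arrays, labelled as biological replicates, and no genetic change or other treatment is given for any group.

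Values are MAS5 signals, an array brightness that had been brought to a common trimmed mean of 500.04 to 500.05 on all 18 arrays, so every change is relative to the whole array. Array medians lay between 153.9 and 205.7. Of 11 root markers, 1 could be tested, PYK10, which is known from roots and hypocotyls; it had a signal between 17856.1 and 23970.9 on every array and passed no test between light conditions. Of 6 markers of aerial parts or etiolated tissue, 1 could be tested, PORB, the enzyme that makes chlorophyllide in tissue newly exposed to light, with signals between 2141.5 and 14027.3 that were lower at 4 h than in the dark in both kinds of RNA. In such bulk samples, fewer cells of a type and less RNA per cell cannot be told apart.

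A seedling in the dark elongates its hypocotyl and keeps its cotyledons folded, under the action of PIF transcription factors, which bind and activate growth genes, many of them tied to auxin and brassinosteroid. Light converts phytochromes to their active form, PIFs are then degraded, and transcripts that depend on them can decline quickly where their decay is fast. Such a transcript can stay low, decline further as the seedling greens, or return as other regulators take over.

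The fall within 0.5 h is what chose the genes, so it is given as a description. The same holds below wherever arrays at 0.5 h are said to lie apart from those in the dark. All changes and ratios are on the log2 scale, with their SE. The median log2 change of the 65 genes that passed the filter on low signal was -1.08 in polysome RNA, over a range of -2.04 to -0.58, and -1.07 in steady-state RNA, over a range of -2.34 to -0.67. An adjusted p under 0.05 was reached by 31 of the 65 in polysome RNA, where 0.678% of all probe sets tested were called lower, and by 32 in steady-state RNA, where 0.685% were. The choice of the genes on this change sets them above those shares. It was reached in both kinds of RNA by 25 genes and in neither by 27, AT5G02580 among the last. Just inside the threshold stood AT5G57670 with a mean change of -0.81, AT5G26200 with -0.80 and CSLC04 with -0.80. Just outside it stood AT3G26510 with -0.80, AT3G57800 with -0.79 and AT5G39080 with -0.78. Median dark signals of the genes were 621.5 in polysome RNA and 598.2 in steady-state RNA.

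The markers of the group, AT4G36010 and AT1G54120, had different test outcomes at 4 h, and the difference between them was not tested. AT4G36010, a thaumatin-like protein gene, had polysome signals of 630.8, 624.4 and 447.9 in the dark, 108.6, 143.3 and 162.9 at 0.5 h and 82.5, 116.7 and 70.0 at 4 h. In steady-state RNA its arrays read 521.2, 497.5 and 464.1 in the dark, 154.1, 79.0 and 96.1 at 0.5 h and 74.0, 111.9 and 99.3 at 4 h. In both kinds of RNA all light arrays lay below all dark arrays, and the arrays at 4 h overlapped those at 0.5 h. The log2 change at 4 h against 0.5 h was -0.64 ± 0.279 in polysome RNA and -0.17 ± 0.279 in steady-state RNA, and neither passed the test (adjusted p 0.0863 and 0.698). Without replicate 2 of the 4 h group the polysome change was -0.84 and passed (adjusted p 0.0419). AT1G54120 had polysome signals of 667.1, 726.5 and 629.8 in the dark, 125.4, 214.7 and 218.2 at 0.5 h and 307.2, 280.4 and 473.2 at 4 h. The steady-state arrays gave 623.0, 793.3 and 900.7 in the dark, 100.9, 302.2 and 230.9 at 0.5 h and 215.9, 418.0 and 303.9 at 4 h. In polysome RNA all arrays at 4 h lay between the arrays at 0.5 h and those in the dark, while in steady-state RNA they overlapped those at 0.5 h. AT1G54120 rose at 4 h against 0.5 h in polysome RNA by 0.93 ± 0.336 (adjusted p 0.038). That call ended without replicate 1 of the 0.5 h or replicate 1 or 3 of the 4 h group (adjusted p up to 0.177), without the intensity trend (0.0641) and without the filter (0.0525). In steady-state RNA the change was 0.65 ± 0.336 (adjusted p 0.149, or 0.0358 with the replicate number as a block). Without replicate 2 of the 0.5 h group the steady-state change was 0.98 and passed (adjusted p 0.0416).

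**Figure D1:**
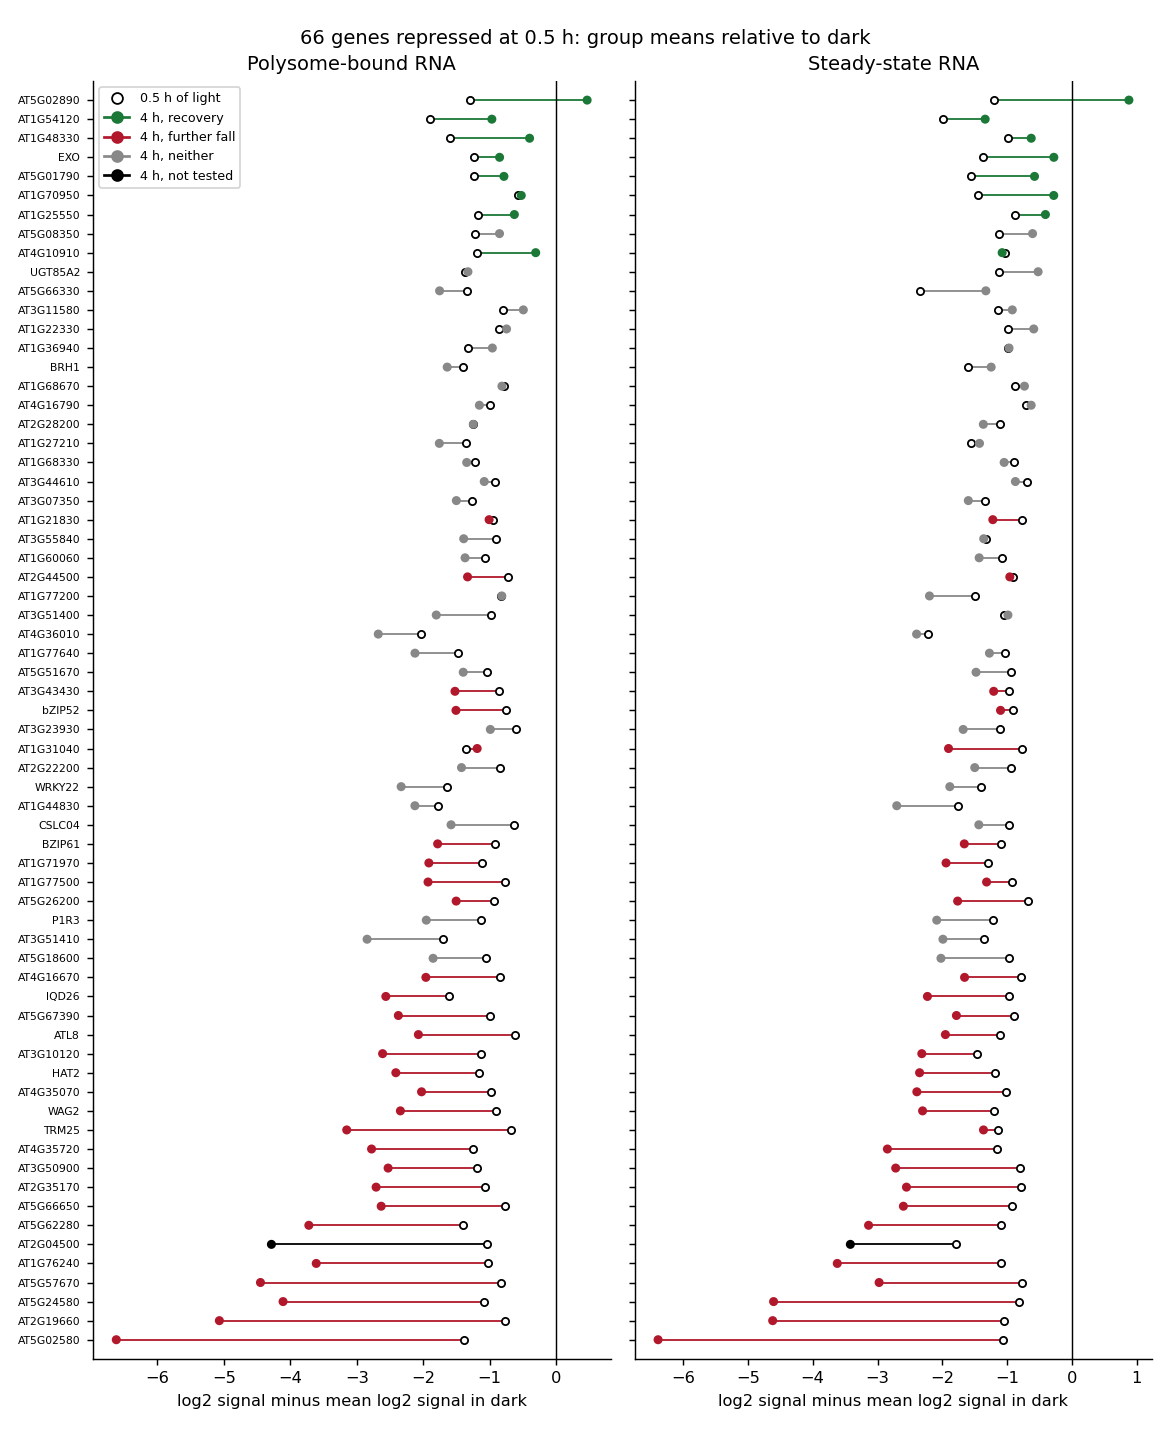
Log2 change from the dark level in polysome RNA (left) and steady-state RNA (right) for all 66 genes, each a mean of 3 arrays, with open points at 0.5 h and filled points at 4 h of light. Colours mark the 8 genes that rose between 0.5 h and 4 h in at least 1 kind of RNA, the 28 that fell in at least 1, the 29 called in neither and the 1 gene not tested. The genes that fell further reach the lowest changes at 4 h, and those that rose have the smallest median changes from dark (-0.58 in polysome and -0.50 in steady-state RNA). This order follows largely from how the colours were set.

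More of these genes fell further than rose between 0.5 h and 4 h. In polysome RNA, 24 of 65 genes fell further at 4 h against 0.5 h and 5 rose, where 18.9% of all probe sets tested were called lower and 14.6% higher. In steady-state RNA, 21 fell further and 5 rose, where 17.5% of all probe sets were called lower and 16.4% higher. The median change of the group was -0.61 in polysome RNA, with -0.10 over all probe sets, and -0.45 in steady-state RNA, with -0.02 over all. These comparisons share the 0.5 h arrays with the rule, and genes picked for low readings there tilt towards higher at 4 h.

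Of the 28 genes that fell further, 17 fell in both kinds of RNA, 7 passed in polysome RNA alone and 4 in steady-state RNA alone. Of the 8 that rose, AT5G02890 and AT1G25550 rose in both, 3 passed in polysome RNA alone and 3 in steady-state RNA alone. No gene was called higher in 1 kind of RNA and lower in the other. The changes had the same sign in 55 of 65 genes, 43 of them lower in both. Over all probe sets, 44.1% of changes were above 0 in polysome RNA and 48.6% in steady-state RNA. How often the kinds of RNA agreed was not counted over all probe sets, so agreement is not shown to be a trait of this group. With the replicate number as a block, 6813 of all 15922 probe sets were called in either direction in polysome RNA and 6764 in steady-state RNA. Of the 65 genes, 31 fell and 5 rose in polysome RNA and 27 fell and 7 rose in steady-state RNA. The share of all probe sets called in each direction with the block was not counted. Calls gained by the block, beside those given with AT1G54120 and AT5G18600, were falls of AT3G51410 (adjusted p 0.0208), WRKY22 (0.032), AT1G27210 (0.0444), IQD26 (0.0246), P1R3 (0.00739) and CSLC04 (3.74e-05) in polysome RNA. In steady-state RNA they were falls of AT1G44830 (0.021), AT3G10120 (0.00614), P1R3 (0.00511), BZIP61 (0.0153) and CSLC04 (0.0171) and a rise of UGT85A2 (0.0167), and no call was lost. All further statements that a gene passed in 1 kind of RNA alone or in neither are from the fit without the block. Across the 65 genes, which are not independent replicates and whose equal-numbered arrays deviate together, Pearson's r between the changes was 0.879 and Spearman's rho 0.799.

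**Figure D2:**
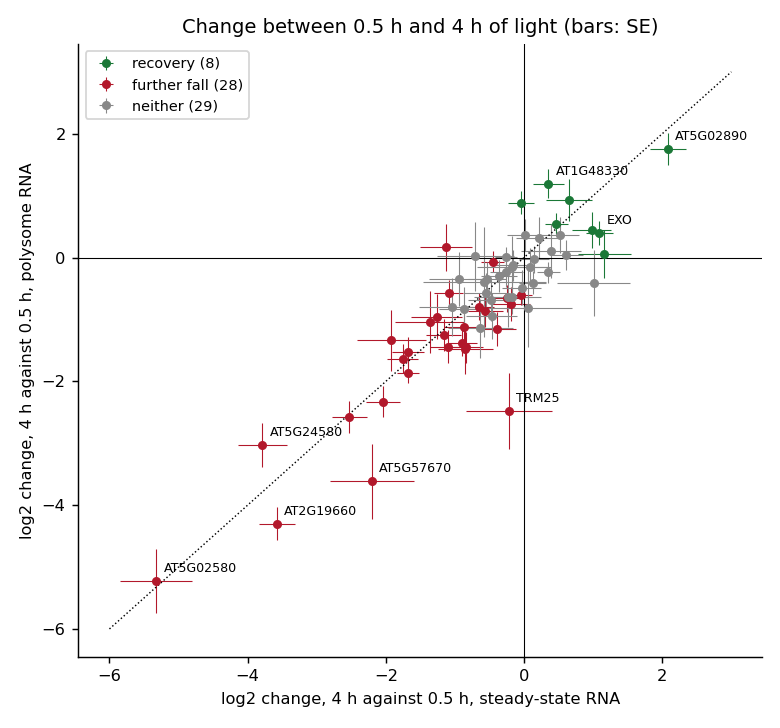
Log2 change at 4 h against 0.5 h in steady-state RNA (x axis) and in polysome RNA (y axis) for the 65 tested genes, with SE bars and a dotted line of equal change. AT5G02580, AT2G19660 and AT5G24580 lie at the lower left, and AT5G02890 stands at the upper right with 2.09 in steady-state RNA and 1.76 in polysome RNA.

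In the 3 steepest further falls by the mean change over both kinds of RNA, signals that stood above every array's median in the dark lay below every array's median at 4 h. AT5G02580 had polysome signals of 2376.0, 1972.6 and 2184.8 in the dark, 768.5, 773.4 and 957.0 at 0.5 h and 50.9, 23.5 and 9.0 at 4 h. Its steady-state signals were 1851.2, 1970.3 and 2620.0 in the dark, 720.8, 1060.7 and 1363.9 at 0.5 h and 61.4, 9.7 and 27.5 at 4 h. The 3 light conditions did not overlap in either kind of RNA. It fell at 4 h against 0.5 h, with changes of -5.23 ± 0.521 in polysome RNA (adjusted p 1.85e-07) and -5.32 ± 0.521 in steady-state RNA (adjusted p 1.5e-07). Its polysome arrays at 4 h alone spanned 9.0 to 50.9, so the size of the fall is less certain than its direction.

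AT2G19660, which encodes a C1-domain protein, had polysome signals of 1280.4, 1083.0 and 1142.5 in the dark, 742.8, 583.5 and 741.9 at 0.5 h and 33.4, 34.1 and 36.8 at 4 h. Its steady-state signals at 4 h were 37.1, 73.7 and 32.6, against 720.7, 524.3 and 399.4 at 0.5 h. All arrays at 4 h lay below those at 0.5 h, with changes of -4.30 ± 0.265 in polysome RNA and -3.58 ± 0.265 in steady-state RNA (adjusted p 3.23e-10 and 3.06e-09). AT2G04500, another C1-domain gene, was the 1 gene that failed the filter on low signal. Its polysome signals were 154.6, 109.4 and 131.5 in the dark, 68.4, 53.7 and 69.5 at 0.5 h and 3.0, 9.8 and 10.2 at 4 h. In steady-state RNA the signals were 105.4, 107.7 and 162.6 in the dark, 7.2, 57.4 and 106.3 at 0.5 h and 5.2, 8.5 and 34.1 at 4 h. The arrays at 4 h were the lowest in polysome RNA, while in steady-state RNA 1 array at 0.5 h already stood among them.

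AT5G24580, with a heavy-metal-associated domain, had polysome signals of 1794.3, 1262.6 and 935.8 in the dark, 753.0, 572.5 and 516.4 at 0.5 h and 99.9, 62.7 and 65.7 at 4 h. Steady-state arrays of this gene read 958.6, 753.2 and 593.2 in the dark, 546.5, 402.9 and 355.8 at 0.5 h and 57.9, 32.4 and 15.9 at 4 h. The conditions were again separate, and the fall at 4 h against 0.5 h was -3.03 ± 0.356 in polysome RNA and -3.79 ± 0.356 in steady-state RNA (adjusted p 1.64e-06 and 8.45e-08). AT5G66650, a mitochondrial-calcium-uniporter family gene whose product is known from chloroplasts, had polysome signals of 598.9, 573.1 and 648.9 at 4 h, against 1980.9, 2285.6 and 2348.5 at 0.5 h. Its steady-state signals were 800.8, 554.9 and 668.4 at 4 h, against 2417.2, 1853.0 and 2166.6 at 0.5 h. The times did not overlap, and its changes of -1.86 ± 0.163 and -1.68 ± 0.163 were close in polysome and steady-state RNA (adjusted p 3.41e-08 and 1.36e-07).

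AT2G35170, a MORN-repeat gene, had mean polysome signals of 301 ± 35.0 at 4 h and 970.3 ± 323 at 0.5 h (SD, n = 3 each), a change of -1.63 ± 0.232 (adjusted p 1.62e-05). In steady-state RNA its change was -1.76 ± 0.232 (adjusted p 6.21e-06). AT5G67390 also fell in both, with changes of -1.38 ± 0.209 in polysome RNA and -0.89 ± 0.209 in steady-state RNA (adjusted p 3.48e-05 and 0.00229). The other genes without a role given here that fell in both were AT1G71970, AT3G50900 and AT4G16670, with polysome changes of -0.79, -1.34 and -1.12 and steady-state changes of -0.65, -1.92 and -0.87. AT3G10120, AT1G77500 and TRM25 passed in polysome RNA alone, at -1.49, -1.16 and -2.48. AT1G21830 and IQD26, the last a calmodulin-binding IQ-domain gene, passed in steady-state RNA alone, at -0.45 and -1.26. Among all further falls called, 5 of 24 in polysome RNA ended when some 1 array was left out (AT1G71970, AT3G50900, AT3G43430, bZIP52 and AT5G26200, adjusted p up to 0.217). In steady-state RNA 7 of 21 did (IQD26, AT1G71970, AT1G31040, AT4G35070, ATL8, AT1G21830 and AT4G16670, adjusted p up to 0.144).

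Of 4 DUF241 genes, AT1G76240 and AT4G35720 fell further in both kinds of RNA, while AT3G51410 and AT3G51400 passed in neither. AT1G76240 had polysome signals of 2550.5, 1841.7 and 2079.1 in the dark, 1179.1, 978.5 and 987.1 at 0.5 h and 133.7, 179.8 and 222.7 at 4 h, with no overlap. Its change at 4 h against 0.5 h was -2.58 ± 0.253 in polysome RNA and -2.53 ± 0.253 in steady-state RNA (adjusted p 1.48e-07 and 1.91e-07), and that of AT4G35720 was -1.52 and -1.68. AT3G51400 and AT3G51410 are the only neighbours on a chromosome within the group. Their changes at 4 h against 0.5 h were -0.82 and -1.15 in polysome RNA and 0.06 and -0.64 in steady-state RNA. Of 42 other adjacent genes that could be tested, 0 were called by limma at 0.5 h against dark in either kind of RNA (at an unadjusted p under 0.05, 0 in polysome and 1 in steady-state RNA). Over all probe sets, 0.678% were called lower in polysome RNA and 0.685% in steady-state RNA. At such shares few calls could occur, and genes of the group were left out of the count. It therefore does not show whether the fall extends to adjacent genes.

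Of 3 protein kinase genes 2 fell further, and of 4 genes with a RING finger, a domain of ubiquitin ligases, 3 did, beside 28 of all 65. These groups were assigned by hand and are too small to be set against that share. The protein kinase gene AT5G57670 had polysome signals of 9.4, 4.1 and 9.4 at 4 h, against 87.9, 84.8 and 88.9 at 0.5 h. In steady-state RNA its arrays read 34.6, 6.4 and 34.5 at 4 h, against 99.7, 95.0 and 78.4 at 0.5 h. The times did not overlap, and it fell, with changes of -3.61 ± 0.607 in polysome RNA and -2.20 ± 0.607 in steady-state RNA (adjusted p 0.000108 and 0.00787). WAG2, an AGC kinase that acts on auxin transport, fell with changes of -1.44 ± 0.265 in polysome RNA and -1.10 ± 0.265 in steady-state RNA (adjusted p 0.000278 and 0.00284). Another AGC kinase gene, AT3G44610, changed by -0.16 and -0.17 without passing. Among the RING genes, ATL8 fell with changes of -1.45 and -0.85 in polysome and steady-state RNA, AT3G43430 passed in polysome RNA alone at -0.66, and AT4G35070 in steady-state RNA alone at -1.37.

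BRH1, a RING-H2 gene that brassinosteroid represses, passed in neither kind of RNA. Its polysome signals were 2438.6, 2959.6 and 2738.9 in the dark, 807.8, 1205.3 and 1101.8 at 0.5 h and 766.5, 873.0 and 975.0 at 4 h. The steady-state arrays gave 1976.9, 2371.2 and 2503.5 in the dark, 708.5, 864.7 and 686.4 at 0.5 h and 1018.7, 898.0 and 958.0 at 4 h. In steady-state RNA all arrays at 4 h lay above those at 0.5 h, and in polysome RNA they overlapped. The changes of -0.24 ± 0.169 in polysome RNA and 0.35 ± 0.169 in steady-state RNA did not pass (adjusted p 0.306 and 0.118).

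Of 13 transcription factor genes, 4 fell further between 0.5 h and 4 h, 1 rose and 8 passed in neither, beside 28, 8 and 29 of all 65. HAT2, an HD-Zip II gene induced by shade and auxin, had polysome signals of 3040.9, 2464.2 and 2169.2 in the dark, 1210.6, 1128.7 and 1055.0 at 0.5 h and 710.3, 350.9 and 431.7 at 4 h. Its steady-state signals were 2605.6, 1686.5 and 1785.6 in the dark, 1064.7, 812.9 and 763.6 at 0.5 h and 560.9, 341.7 and 307.8 at 4 h. The times were separate in both, and it fell at 4 h against 0.5 h, with changes of -1.25 ± 0.255 in polysome RNA and -1.16 ± 0.255 in steady-state RNA (adjusted p 0.000737 and 0.00131). BZIP61 and bZIP52, both bZIP factors, passed in polysome RNA alone at -0.87 and -0.75, and AT1G31040, a PLATZ-type gene, in steady-state RNA alone at -1.13. AP2/ERF genes AT1G44830, AT1G77640, AT1G77200 and AT2G22200 did not pass in either, with polysome changes between -0.64 and 0.02 and steady-state changes between -0.94 and -0.24. WRKY22, a WRKY factor of defence signalling, and AT3G11580, of the B3 type, had polysome changes of -0.69 and 0.31 and passed in neither.

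Among them are a pair of GARP-type repressors of nitrate responses. AT1G25550, known as HHO3, had polysome signals of 1227.2, 969.2 and 1057.4 at 4 h, against 723.8, 746.7 and 744.8 at 0.5 h. In steady-state RNA the signals were 1053.6, 1071.2 and 1054.1 at 4 h, against 700.9, 833.4 and 768.7 at 0.5 h. It rose by 0.55 ± 0.170 in polysome RNA and 0.47 ± 0.170 in steady-state RNA (adjusted p 0.0171 and 0.0386), with no overlap of the times. The polysome call ended without replicate 1 of the 4 h group (adjusted p 0.0795), and the steady-state call ended when any 1 of 5 arrays was left out (adjusted p up to 0.101), with the compared arrays alone (0.0616) and with array medians made equal (0.155). AT1G68670, known as HHO2, had overlapping times and changes of -0.03 ± 0.216 and 0.14 ± 0.216 (adjusted p 0.939 and 0.676). The difference between these genes was not tested.

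AT5G02890, an HXXXD-type acyltransferase gene, rose the most between 0.5 h and 4 h in both kinds of RNA. Its polysome signals were 525.8, 596.9 and 601.6 in the dark, 183.2, 208.1 and 338.7 at 0.5 h and 874.5, 542.6 and 1047.4 at 4 h. Steady-state arrays of this gene read 776.9, 507.7 and 543.1 in the dark, 216.7, 247.8 and 323.0 at 0.5 h and 1123.8, 900.2 and 1310.5 at 4 h. All arrays at 4 h lay above those at 0.5 h in both, and in steady-state RNA also above those in the dark. It rose at 4 h against 0.5 h by 1.76 ± 0.260 in polysome RNA and 2.09 ± 0.260 in steady-state RNA (adjusted p 2.7e-05 and 3.21e-06).

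EXO, a brassinosteroid-induced gene that promotes cell expansion, had polysome signals of 8661.5, 10942.1 and 11556.4 in the dark, 2918.4, 5045.1 and 5615.0 at 0.5 h and 6319.5, 5116.9 and 5760.7 at 4 h. Its steady-state signals were 8382.2, 9501.7 and 10994.9 in the dark, 3438.0, 4025.1 and 3692.3 at 0.5 h and 8713.8, 7604.6 and 7362.8 at 4 h. Polysome arrays at 4 h overlapped those at 0.5 h, whereas steady-state arrays at 4 h lay above all at 0.5 h and overlapped the dark. The polysome change was 0.39 ± 0.196 (adjusted p 0.137), and in steady-state RNA the transcript rose by 1.09 ± 0.196 (adjusted p 0.000211). Without replicate 3 of the 0.5 h group the polysome change was 0.57 and passed (adjusted p 0.0432). CSLC04, which makes the xyloglucan backbone and is the other cell wall gene, changed by -0.95 in polysome RNA and -0.47 in steady-state RNA without passing.

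**Figure D3:**
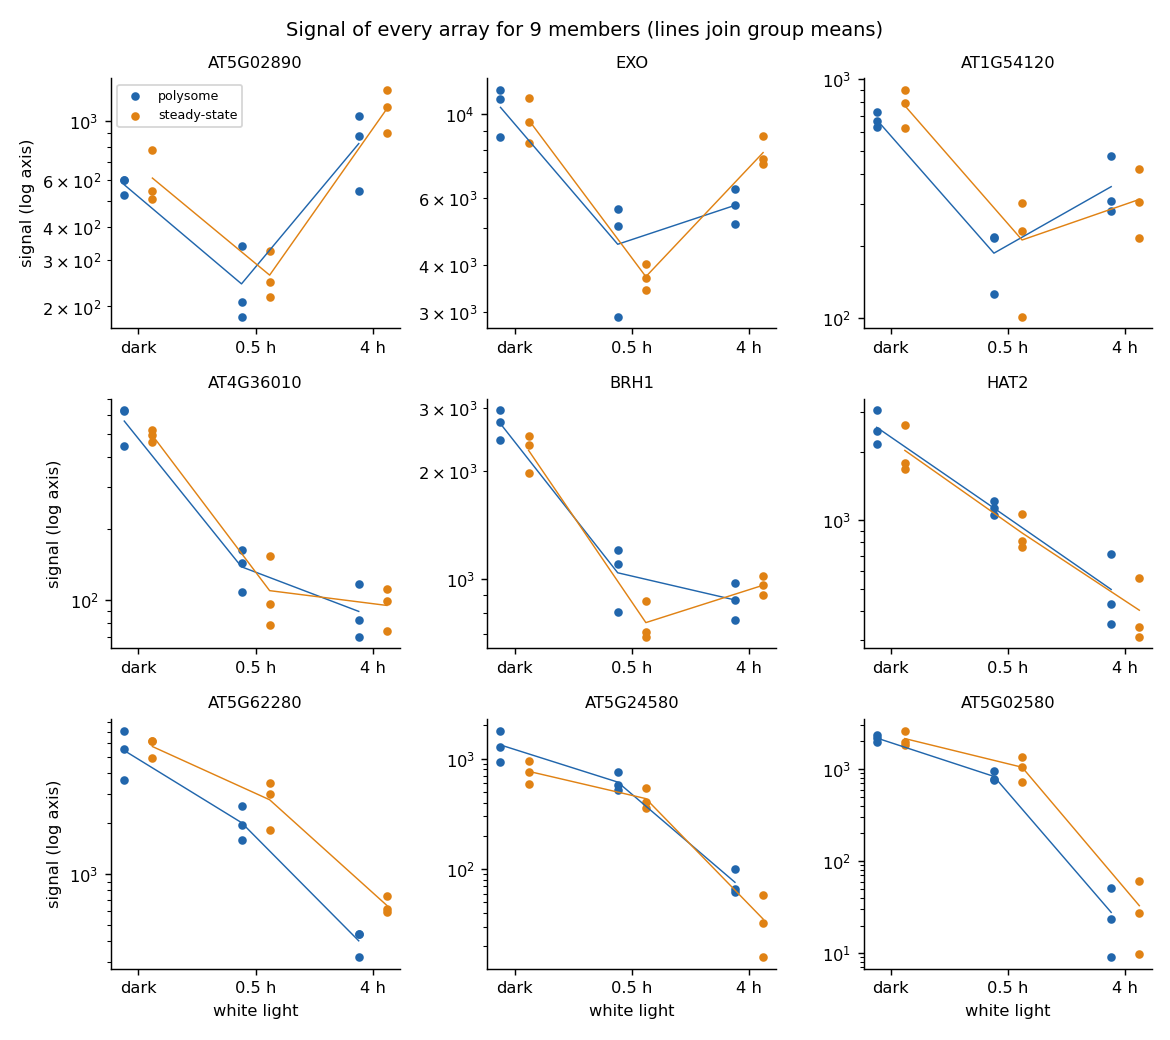
MAS5 signal on a log axis, 1 point per array, for 9 genes in the dark, at 0.5 h and at 4 h of light, with polysome RNA and steady-state RNA side by side and lines through the means of 3 arrays. Each panel has its own axis, since signals of different probe sets are not compared. AT5G02890 climbs past its dark level in steady-state RNA at 4 h, while AT5G02580 drops to signals between 9.0 and 61.4.

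AT1G48330 and AT4G10910 passed as higher in polysome RNA alone. AT1G48330 had polysome signals of 522.0, 548.3 and 465.9 at 4 h, against 228.0, 281.0 and 174.3 at 0.5 h, a rise of 1.19 ± 0.230 (adjusted p 0.000441) with no overlap. Its steady-state change was 0.35 ± 0.230 (adjusted p 0.266). AT4G10910 had polysome signals of 1029.2, 970.9 and 651.4 at 4 h, against 402.1, 533.6 and 483.1 at 0.5 h, a rise of 0.88 ± 0.186 (adjusted p 0.000981) with no overlap. Its steady-state signals of 479.1, 367.5 and 356.0 at 4 h overlapped those of 386.4, 465.3 and 382.5 at 0.5 h, a change of -0.04 ± 0.186 (adjusted p 0.889). AT5G01790 and AT1G70950, a TPX2-family gene, passed as higher in steady-state RNA alone, with changes of 0.98 ± 0.286 and 1.16 ± 0.385 (adjusted p 0.0118 and 0.0243). The call of AT5G01790 ended without replicate 1 of the 4 h group (adjusted p 0.0614), and that of AT1G70950, whose steady-state arrays overlapped, ended without replicate 1 or 3 of the 0.5 h or replicate 3 of the 4 h group (adjusted p up to 0.147) and with the compared arrays alone (0.171).

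Of the 29 genes that passed in neither at 4 h against 0.5 h, those with the highest dark signals follow, beside BRH1 and AT1G68670. AT5G18600, a CC-type glutaredoxin gene, had polysome signals of 3547.8, 6661.0 and 7654.6 in the dark, 1511.5, 3603.3 and 3708.3 at 0.5 h and 1752.3, 1642.3 and 1334.7 at 4 h. In steady-state RNA its arrays read 2669.2, 5838.4 and 5366.1 in the dark, 770.2, 3250.2 and 4391.2 at 0.5 h and 998.1, 1105.0 and 1131.6 at 4 h. In both kinds of RNA replicate 1 was the lowest of its group in the dark and at 0.5 h, and the arrays at 4 h overlapped those at 0.5 h. Its changes of -0.80 ± 0.475 in polysome RNA and -1.05 ± 0.475 in steady-state RNA did not pass (adjusted p 0.216 and 0.0994), and with the replicate number as a block they did (0.0477 and 0.0107). Without replicate 1 of the 0.5 h group the steady-state change was -1.81 and passed (adjusted p 0.000695), and with the compared arrays alone the polysome change passed (0.0453). AT3G07350, a DUF506 gene, changed by -0.24 and -0.26 and passed in neither. AT2G44500, an O-fucosyltransferase-like gene, and AT5G26200, a mitochondrial carrier, fell in polysome RNA, with changes of -0.61 and -0.57, and AT5G26200 also in steady-state RNA, with -1.09. UGT85A2, a glycosyltransferase gene, had changes of 0.05 and 0.61 and passed in neither.

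Against the dark, the group stayed low at 4 h. In polysome RNA, 56 of 65 genes were lower at 4 h than in the dark and 0 were higher, where 20.1% of all probe sets tested were called lower and 15.6% higher. In steady-state RNA, 51 were lower and 1, AT5G02890, was higher, where 17.1% were called lower and 16.9% higher. Of the 65, 47 were lower in both and 5 in neither, and these shares were not counted over all probe sets. Among the 6812 tested probe sets with 1 gene and dark means of at least 100, 23.8% were called lower in polysome RNA and 21.0% in steady-state RNA. The median change of the 65 genes was -1.64 in polysome RNA, with -0.09 over all probe sets, and -1.48 in steady-state RNA, with -0.01 over all. These comparisons share the dark arrays with the rule, which tilts the genes towards lower.

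A level at 4 h at least 4-fold below dark was found for 23 genes in polysome RNA and 20 in steady-state RNA. The share of all probe sets at that fold was not counted. The 28 genes that fell further had median changes from dark of -2.39 in polysome RNA and -2.27 in steady-state RNA. The 29 called in neither had -1.40 and -1.37, and the 8 that rose had -0.58 and -0.50. The change from 0.5 h to 4 h, which set these classes, is part of the change from dark. The order of the classes therefore follows largely from how they were set. AT5G02890 stood 0.88 ± 0.260 above dark in steady-state RNA (adjusted p 0.0124) and 0.47 ± 0.260 in polysome RNA (adjusted p 0.181). The steady-state call ended without replicate 2 of the dark or replicate 3 of the 4 h group (adjusted p up to 0.0635). The other 4 genes lower in neither were AT1G70950, AT1G22330, AT3G23930 and AT3G44610, with polysome changes of -0.53, -0.75, -0.99 and -1.08. With the replicate number as a block AT1G22330 (adjusted p 0.0294) and AT3G44610 (0.000393) were lower in polysome RNA, and AT3G23930 (0.0285) and AT3G44610 (0.0028) in steady-state RNA.

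Among genes that did not move past the test between 0.5 h and 4 h, many remained well below dark. AT4G36010 was lower, with changes of -2.68 ± 0.279 in polysome RNA and -2.40 ± 0.279 in steady-state RNA (adjusted p 2.45e-07 and 1.06e-06). WRKY22 stood at -2.33 and -1.89, AT3G51410 at -2.85 and -1.99, and BRH1 at -1.64 and -1.25, all called lower in polysome and steady-state RNA. AT1G27210, an ARM-repeat gene, AT1G60060, AT5G51670, AT3G55840, P1R3, AT1G68330 and AT1G36940 were also called lower in both, with polysome changes between -1.95 and -0.96. AT5G66330, with leucine-rich repeats, AT5G08350 and AT4G16790 passed in polysome RNA alone, at -1.75, -0.85 and -1.16, with steady-state changes of -1.33, -0.61 and -0.63. With the replicate number as a block these steady-state changes passed too (adjusted p 0.0167, 0.0313 and 0.0416). Of the calls lower than dark, 7 of 56 in polysome RNA ended when some 1 array was left out (AT1G54120, AT5G66330, AT5G01790, AT5G08350, AT1G36940, AT1G31040 and AT3G51400, adjusted p up to 0.227). In steady-state RNA 4 of 51 did (AT1G48330, AT1G77640, AT3G11580 and AT1G68670, adjusted p up to 0.247).

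The PIF and shade list adds context for HAT2 and AT5G62280, a DUF1442 gene associated with shade and PIFs. AT5G62280 had polysome signals of 3618.2, 5532.3 and 7133.1 in the dark, 1952.9, 1585.2 and 2529.2 at 0.5 h and 440.8, 318.9 and 441.8 at 4 h. The steady-state arrays gave 4872.8, 6155.0 and 6181.4 in the dark, 1825.3, 2988.6 and 3483.9 at 0.5 h and 621.4, 594.1 and 735.5 at 4 h. The times were separate in both kinds of RNA, and its fall at 4 h against 0.5 h was -2.33 ± 0.251 in polysome RNA and -2.04 ± 0.251 in steady-state RNA (adjusted p 5.56e-07 and 2.7e-06). Of 23 listed genes, 5 could be tested. HAT2, AT5G62280 and IAA29 met the limits of the rule on signal and change, so 3 of the 5 were picked as low against dark at 0.5 h, and the list is no independent evidence of a direction. At 4 h against dark all 5 were lower in both kinds of RNA, where 20.1% of all probe sets were called lower in polysome RNA and 17.1% in steady-state RNA, with median changes of -2.41 in polysome RNA and -2.35 in steady-state RNA. At 4 h against 0.5 h 4 of the 5 fell in each, where 18.9% and 17.5% of all probe sets did, the exception being IAA29, an auxin-signalling repressor that the rule left out, with 0.12 in polysome RNA and -0.09 in steady-state RNA.

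Of 19 photoreceptor and light-signalling genes 1, HYH, could be tested, and none of 18 gibberellin, brassinosteroid and ethylene enzyme genes could. In every list, a gene could be tested only where a probe set past the filter on low signal lists it alone. Of 22746 probe sets, 8730 list no gene and 503 list several. A list gene that could not be tested is therefore not shown to be missing from the array or not expressed. HYH, a bZIP factor that promotes photomorphogenesis, is not one of the 66, and it rose at 4 h against 0.5 h by 3.68 ± 0.322 in polysome RNA and 3.25 ± 0.322 in steady-state RNA (adjusted p 3.29e-08 and 1.74e-07).

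Polysome loading, read as the log2 ratio of polysome to steady-state signal, was not used by the rule. At 4 h, 5 of 65 genes were higher in polysome than in steady-state RNA and 1 was lower, where 5.55% of all probe sets tested were called higher and 7.84% lower. At 0.5 h 1 gene was higher and 0 were lower, where 4.04% and 4.28% of all probe sets were, and in the dark 2 were higher and 0 lower, where 3.7% and 4.55% were. Without adjustment, a p under 0.05 was reached by 17 genes at 4 h, 14 at 0.5 h and 6 in the dark. Of all 15922 probe sets, 4172, 3700 and 3512 reached it in the same order. With the replicate number as a block limma called 3677, 2944 and 2738 of all 15922 probe sets in either direction at 4 h, at 0.5 h and in the dark. Of the 65 genes it called 6 higher and 4 lower at 4 h, 10 and 1 at 0.5 h and 5 and 0 in the dark. Calls over all probe sets were not split by direction with the block. Among the calls it added, AT3G07350 was higher in polysome RNA at all 3 light conditions, with ratios of 0.50 in the dark, 0.58 at 0.5 h and 0.59 at 4 h (adjusted p 0.0296, 0.0118 and 0.00776), and AT5G62280 was lower at 4 h, at -0.71 (adjusted p 0.00882). The median ratio of the genes was 0.25 in the dark, 0.29 at 0.5 h and 0.11 at 4 h, and over all probe sets 0.03, 0.00 and -0.06.

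AT2G28200, a zinc-finger factor gene, had polysome signals of 975.0, 1118.9 and 1030.7 and steady-state signals of 604.8, 572.5 and 594.6 at 4 h. Every polysome array lay above every steady-state array at all 3 light conditions. The ratio was 0.70 ± 0.159 in the dark, 0.55 ± 0.159 at 0.5 h and 0.82 ± 0.159 at 4 h (adjusted p 0.00954, 0.0365 and 0.00196). The call at 0.5 h ended when any 1 of the 6 arrays at 0.5 h was left out (adjusted p 0.0509 to 0.143), with those arrays alone (0.151), with array medians made equal (0.0934) and without the intensity trend (0.0524), and the call in the dark ended without replicate 3 of the steady-state arrays (0.063). AT4G10910 had a ratio of 1.13 ± 0.186 at 4 h (adjusted p 0.000597), with its polysome arrays, given above, all over its steady-state arrays. AT5G24580 had 1.26 ± 0.356 (adjusted p 0.0233). That last gene read below 100 on every array at 4 h, and its call ended when the 4 h arrays were fitted alone (adjusted p 0.266), with quantile normalization (0.0538), with 32 added to each signal (a ratio of 0.71, adjusted p 0.0761), or without replicate 2 or 3 of the steady-state or replicate 1 of the polysome arrays at 4 h (adjusted p up to 0.145).

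AT2G35170 and AT5G26200 were called higher with ratios of 0.73 and 0.65. The call of AT2G35170 ended when any 1 of the 6 arrays at 4 h was left out (adjusted p 0.0703 to 0.126), without the intensity trend (0.0664) and with 32 added to each signal (0.0578). AT5G67390 was the 1 gene called lower, with polysome signals of 120.5, 77.0 and 111.6 and steady-state signals of 175.9, 177.4 and 197.9 at 4 h. All its polysome arrays lay below the steady-state arrays, a ratio of -0.86 ± 0.209 (adjusted p 0.00985), and the call ended without replicate 2 of the polysome arrays (adjusted p 0.0653) and with the 4 h arrays fitted alone (0.0687).

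**Figure D4:**
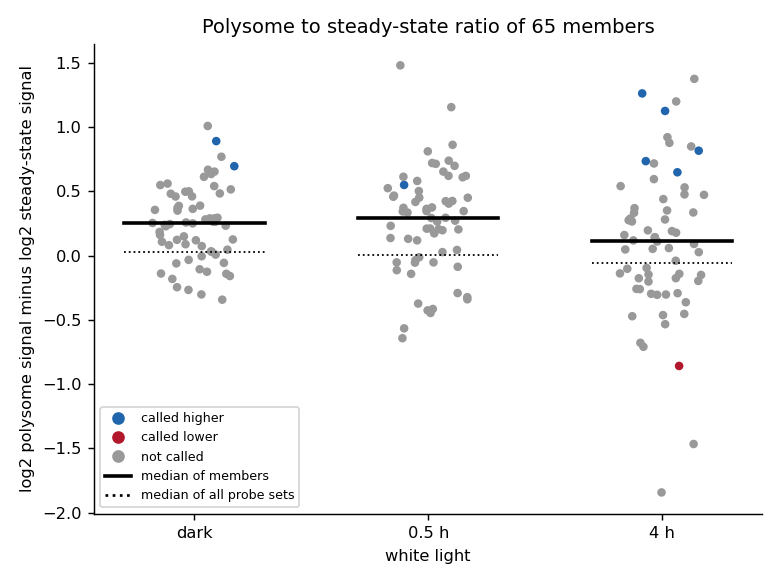
Log2 ratio of polysome to steady-state signal for the 65 tested genes in the dark, at 0.5 h and at 4 h of light, 1 point per gene, each from 3 arrays of each kind of RNA. Solid lines are the medians of the genes (0.25, 0.29 and 0.11) and dotted lines those of all probe sets (0.03, 0.00 and -0.06).

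Whether a ratio itself changed with light was tested as an interaction. At 4 h against 0.5 h limma called 0 genes, where 0.0188% of all probe sets were called either way, and 7 had an unadjusted p under 0.05. At 4 h against dark it called 0, where 0.364% were, and 2 had an unadjusted p under 0.05. Of all 15922 probe sets, 1265 and 1267 reached that unadjusted p in the same order. TRM25 had a ratio change of -2.26 ± 0.877 at 4 h against 0.5 h (adjusted p 0.49), and AT1G31040 one of 1.29 ± 0.529 (adjusted p 0.527). For the genes called in 1 kind of RNA alone, above, the change with light was therefore not shown to differ between polysome and steady-state RNA.

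To set the 4 h results apart from the arrays that chose the genes, the choice was repeated on the other kind of RNA. Of 109 genes chosen on steady-state RNA alone and tested in polysome RNA, 29 fell at 4 h against 0.5 h (26.6%), 9 rose (8.26%), and 60 were lower than in the dark (55%). Of 88 genes chosen on polysome RNA alone and tested in steady-state RNA, 23 fell at 4 h against 0.5 h (26.1%), 8 rose (9.09%), and 53 were lower than in the dark (60.2%). No test was made of these shares. Each share of falls stood above the 18.9% and 17.5% of all probe sets, though equal-numbered arrays of the kinds of RNA deviate together. Among the 6812 tested probe sets with 1 gene and dark means of at least 100 in both kinds of RNA, 22.2% were called lower at 4 h against 0.5 h in polysome RNA and 21.2% in steady-state RNA. Those probe sets are not matched to this choice, which asked for 1 dark mean.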

How the data were processed

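Aerial parts of etiolated seedlings gave polysome and steady-state RNA on 18 Affymetrix arrays, with 6 groups of 3. The deposited intensity values are linear signals. The submitters' processing notes name MAS5, and neither label nor file header gives a version or settings. The number of arrays limits the precision. The deposited table holds 22810 probe sets. No 2 arrays shared more than 0.285% of their signals, over 153 pairs compared.

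After removal of 64 control probe sets, signals were put on a log2 scale with a floor of 1, which 915 values fell under. Probe sets with a mean log2 signal at or above the 30th percentile were tested, 15922 of 22746, with a smallest geometric mean of 42.089. Of the 66 genes, 65 passed. Gene names came from the array annotation and a reference gene table, which held all 66. Probe sets listing several genes (503) or none (8730) could not be chosen or counted in a list. Genes measured by such probe sets alone are therefore missing from the 66 and from the tested list genes.

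Tests used limma (version 3.58.1, R 4.3.3), with 6 group means over all arrays, an intensity trend and two-sided p-values adjusted by Benjamini-Hochberg over all 15922 probe sets, with a threshold of 0.05. A gene is called where it passes, and errors beside log2 changes are SEs. The labels call replicates biological; whether they came from separate cultures is not stated, and if not, p-values measure technical spread. This main fit did not pair samples of equal replicate number, and an alternative fit took the number as a block. In the 9 pairs of groups compared, deviations of equal-numbered arrays correlated at 0.108 to 0.426 and of others at up to 0.0359. The main fit leaves this correlation out, and the sources used here do not say what the number marks. Calls and classes are from the main fit unless an alternative is named.

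The genes, lists, comparisons and alternatives were chosen with earlier results of these data known. Genes were named by rule: the pair of markers, the 8 lowest further falls, the 8 highest rises, the 4 highest dark signals among those called in neither, up to 3 polysome ratios each way, and list genes; other genes appear with their mean changes, and HYH, PYK10 and PORB as the sole tested genes of their lists. Neighbours and genes lower than dark in neither kind of RNA were counted after values were seen. Role groups were assigned by hand. Detection calls, scan dates and promoter motifs were not analysed here. Alternatives were arrays fitted alone, each array left out, normalization, the replicate block, trend, filters, an added 32, and genes chosen on 1 kind of RNA. The fitting code was tested on simulated data.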

Additional observations from a re-analysis of the deposited data

How the results depend on the processing

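No change of a named gene reversed its direction where it was called in the main fit or under the alternative. Changes called in neither were not checked for direction. Of the changes of named genes under an alternative, 3172 kept their side of the threshold, 42 gained a call and 73 lost one. Of the counts of genes called, 245 stayed within 1.5 times and 39 did not. For this, counts of genes chosen on 1 kind of RNA were set against the main ones as shares of the genes tested. At 4 h against 0.5 h, leaving out 1 array at a time gave 3 to 6 higher and 21 to 26 lower genes in polysome RNA and 3 to 6 higher and 15 to 23 lower in steady-state RNA. At 4 h against dark it gave 0 to 1 higher and 50 to 56 lower in polysome RNA and 0 to 1 higher and 47 to 51 lower in steady-state RNA. For polysome against steady-state RNA it gave 2 to 5 higher and 0 to 2 lower at 4 h, 0 to 4 higher and 0 to 1 lower at 0.5 h, and 0 to 2 higher in the dark. Counts lower in polysome RNA at 4 h were 3 with the compared arrays alone, 2 with quantile normalization and 4 with the replicate block. Counts higher in polysome RNA at 0.5 h were 0 with the compared arrays alone or equal array medians, 3 with quantile normalization or a stricter filter, 2 with 32 added to each signal and 10 with the replicate block, which also gave 1 lower at 0.5 h and 5 higher in the dark. With 32 added, 2 genes were higher at 4 h. Genes chosen on polysome RNA alone gave 3 higher than dark in steady-state RNA at 4 h, and genes chosen on steady-state RNA alone gave 2 higher and 60 lower in polysome RNA. With the replicate block, 31 genes fell further and 5 rose in polysome RNA at 4 h against 0.5 h, and 27 fell and 7 rose in steady-state RNA. Over all 15922 probe sets the block gave 6813 and 6764 calls, which were not split by direction. Beside the values given with the results it changed no call of a gene named by the rule at 4 h against 0.5 h. The cause of these shifts was not tested. Making array medians equal moved the median of all probe sets by 0.14 for polysome against steady-state RNA at 4 h, by -0.11 for steady-state RNA at 4 h against dark, and by 0.12 for the ratio change at 4 h against dark. Low signals limit the size of the steepest falls, and 3 arrays a group limit what the ratio tests can detect.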
